A study of Mus musculus with 5 samples.

Results

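The prostaglandin and leukotriene pathway was followed through 10 genes, chosen by name from the gene table: Ptgs1, Ptgs2, Ptges, Alox5, Alox5ap, Lta4h, Ltc4s, Pla2g7, Ptger2 and Ptger4. All 10 were among the 24419 gene rows of the table, and all 10 had UMIs in at least 1 library. RNA-seq was performed on bone marrow-derived macrophages (BMMs) of C57BL/6 mice (C57BL6/J in the series' design text), grown with 50 ng/ml M-CSF over 5 days. Every sample, controls included, was then activated with 100 ng/ml LPS, the bacterial lipopolysaccharide that triggers Toll-like receptor 4. LPS-stimulated BMMs received PBS (2 libraries) or 100 ng/ml recombinant Sema3G, a secreted semaphorin (3 libraries), and were kept for 18 h. The titles of the PBS libraries call them untreated, whereas their treatment field names PBS. No library without LPS was part of the comparison, so the values describe Sema3G on top of LPS. The labels do not say whether replicates came from separate mice or cultures, so the p-values measure only the spread between these libraries, which may be technical.

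Prostaglandins and leukotrienes are short-lived lipid mediators made from arachidonic acid, which phospholipases free from membrane lipids. Cyclooxygenases turn arachidonic acid into prostaglandin H2, and terminal synthases then form prostaglandin E2 (PGE2), prostaglandin D2, prostacyclin or thromboxane. In the other arm, 5-lipoxygenase makes leukotriene A4 with the help of its activating protein, and leukotriene A4 becomes leukotriene B4 or leukotriene C4. Macrophages are a well-known source of both classes, LPS is a textbook inducer of cyclooxygenase-2 and PGE2 in them, and PGE2 acts back on the same cells through cAMP-raising receptors.

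The libraries count the 3′ ends of poly(A) RNA, with a unique molecular identifier (UMI) for each molecule. A level here is CPM, the UMIs of a gene per 1000000 UMIs of the library, and since each molecule is tagged at its 3′ end, CPM was not divided by transcript length. Library totals, inferred from the smallest CPM step of each library, lay between 1798469 and 2215855 UMIs. On these totals, 3 UMIs corresponded to 1.35 to 1.67 CPM. The totals and the shares that follow assume that CPM was taken over plain library sizes. The share of UMIs on listed genes was 75.6% and 77.6% with PBS and 65.9% to 71.3% with Sema3G, and the ribosomal RNA precursor Rn45s held 1.01% and 3.19% against 6.31% to 7.88%. Both enter the CPM and differed between the groups, and their part in the results was not tested. The median log2 fold change over the 10088 genes tested was -0.22, and it was -0.036 after TMM scaling and 0.043 with CPM taken over the listed genes other than Rn45s. Within a group, libraries were not equally close to each other. The chi-square divided by its degrees of freedom, 1 for pure sampling noise, was 11.4 between the PBS libraries, 1.77 between Sema3G replicates 2 and 3, 6.57 and 7.57 between Sema3G replicate 1 and these, and 12.2 to 29.6 across the groups. Results that rest on 1 library are given with and without it. In view of the median shift, some member changes are also given relative to -0.22. All 10 macrophage markers examined were detected, among them Csf1r, Lyz2, Cd14 and Adgre1. In bulk RNA, fewer cells that express a gene and less RNA per cell cannot be told apart.

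The 10 genes spanned more than 3 orders of magnitude in level. Pla2g7 stood highest, at 1697 CPM over the 5 libraries, above 99.7% of the genes tested, followed by Alox5ap at 444 CPM. Next came Ptges at 65.5 CPM. Lta4h, Ptger4, Ptger2 and Alox5 formed a group between 21.8 and 28.5 CPM, and Ptgs1 lay at 13.4 CPM. Ltc4s, at 2.01 CPM, and Ptgs2, at 1.05 CPM, were at the edge of detection. Pla2g7 exceeded Alox5ap 3.82-fold, Alox5ap exceeded Ptges 6.78-fold and Ptgs1 exceeded Ltc4s 6.69-fold, each without overlap of the libraries. The libraries of all other neighbours in this order overlapped. The activating protein of 5-lipoxygenase was thus far more abundant as RNA than the lipoxygenase itself, and the inducible cyclooxygenase was the least abundant of the set.

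**Figure D1:**
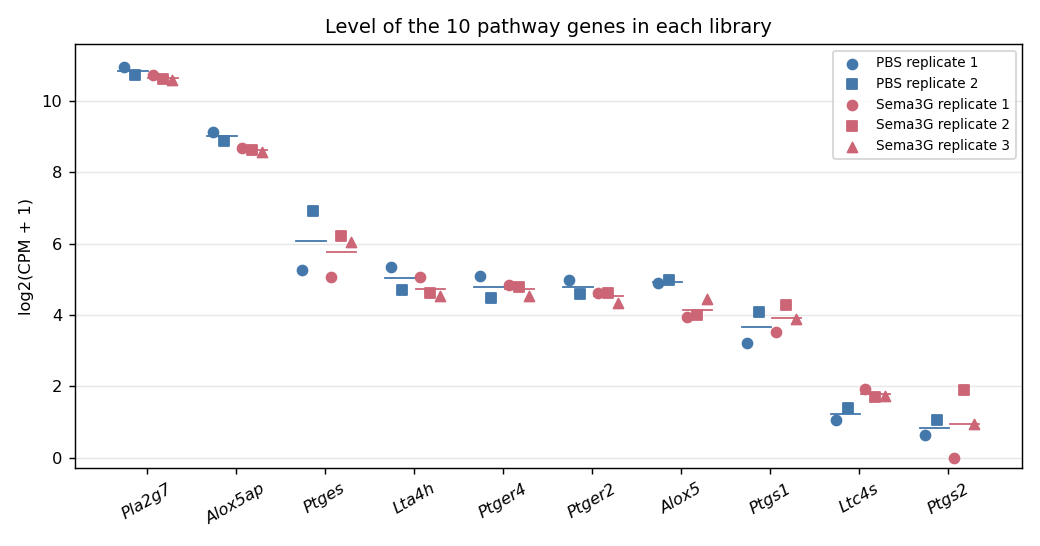
Level of each of the 10 genes in each library, as log2(CPM + 1) on the vertical axis, with genes ordered by mean CPM. Blue symbols are the 2 PBS libraries, red symbols the 3 Sema3G libraries, and each short line is the mean of a group. Pla2g7 and Alox5ap lie far above the rest, Ptgs2 and Ltc4s near 0, and Alox5 has both blue symbols above all red ones.

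None of the 10 genes passed the test between Sema3G and PBS. The test was limma on log2(CPM + 1), its variance prior following the mean, with Benjamini-Hochberg adjustment over all 10088 genes whose mean reached 1 CPM, and a gene was called at an adjusted p below 0.05. It called 0 of 10 members higher and 0 of 10 lower, where 1.59% of all genes were called higher (160 genes) and 0.218% lower (22 genes). After TMM scaling the split over all genes was 322 higher (3.19%) and 3 lower (0.0297%), with 0 members called. On the recovered UMI counts, edgeR's quasi-likelihood test, which could use 8 of the 10, called 0 members (4.63% of all genes higher and 0.0366% lower). DESeq2, with an adjusted p for 8 of them, called 0 members as well (2.76% higher and 0.0120% lower). Before adjustment, at p under 0.05, limma gave 1 lower member, Alox5, and 0 higher ones, beside 14.2% of all genes lower and 6.83% higher. The fitted change lay below 0 for 7 members and above 0 for 3, as for 67.5% of all genes below 0, and the median of the members was -0.23 against -0.22 for all genes. With TMM scaling 5 members lay below 0 and 5 above, and with CPM over listed genes 4 below and 6 above. The groups did not overlap for 3 members that were lower with Sema3G (Pla2g7, Alox5ap and Alox5) and for 1 that was higher (Ltc4s), against a background of 26.5% of genes lower and 11.9% higher without overlap. These shares are close to the background and single out nothing about the pathway as a whole.

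**Figure D2:**
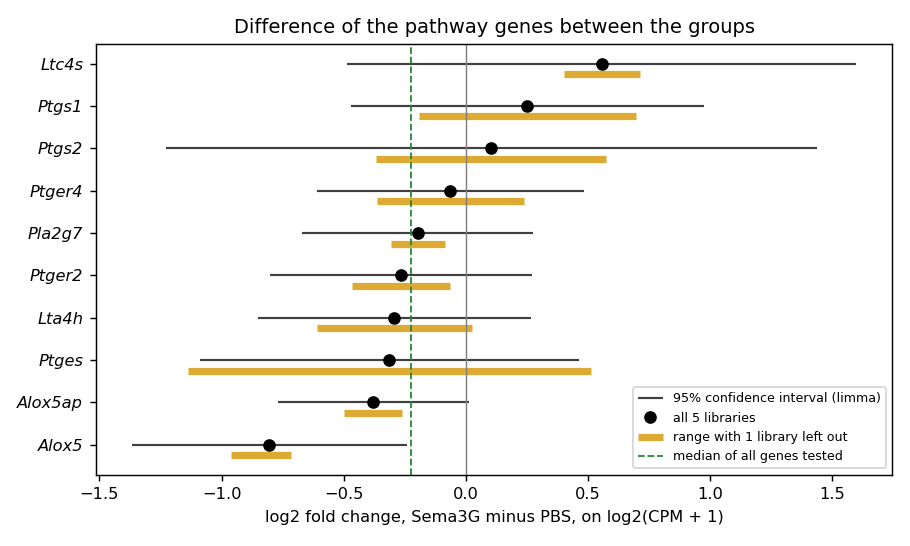
Difference between Sema3G and PBS for each gene on the log2(CPM + 1) scale. Points use all 5 libraries, thin lines are 95% confidence intervals from limma, thick yellow bars span the values with 1 library left out, and the dashed green line is the median of all genes tested (-0.22). Alox5 is the 1 gene whose interval excludes 0, at -1.37 to -0.24, and the yellow bars of Ptgs1, Ptgs2, Ptges, Lta4h and Ptger4 cross 0.

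Ptgs2 encodes cyclooxygenase-2, the inducible enzyme that commits arachidonic acid to prostaglandins (chr1:150100031-150108227, plus strand, GRCm38). PBS libraries gave 1 and 2 UMIs, while Sema3G libraries gave 0, 6 and 2 UMIs. Over the groups this is 3 UMIs against 8, which after division by the library totals is a 1.59-fold ratio (Sema3G over PBS) with a 95% counting interval from 0.382 to 9.31. The group levels were 0.810 ± 0.369 CPM (SD, n = 2) and 1.21 ± 1.38 CPM (SD, n = 3). The groups overlapped, Sema3G replicate 1 held the lowest value and Sema3G replicate 2 the highest, and only through that library did the gene reach a mean of 1 CPM. The limma log2 fold change was 0.10 (adjusted p = 0.945), with an interval from -1.23 to 1.44 that covers a large change in either direction. Without Sema3G replicate 2, which held 6 of the 8 Sema3G UMIs, it was -0.37. At this depth no difference was detectable, and the RNA of the LPS-inducible cyclooxygenase itself was barely detectable in these LPS-stimulated BMMs. In a 3′-end library, a low count and transcripts that end outside the gene model used for counting cannot be told apart.

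Ptgs1 encodes cyclooxygenase-1, the constitutive counterpart (chr2:36230426-36252272, plus strand). It had 15 and 30 UMIs with PBS and 19, 41 and 30 UMIs with Sema3G, or 12.2 ± 5.53 CPM (SD, n = 2) and 14.3 ± 3.99 CPM (SD, n = 3). Replicate 1 was the lowest library in both groups, and the groups overlapped. The log2 fold change was 0.25 (limma adjusted p = 0.693, standard error 0.34). It was 0.44 after TMM scaling, 0.54 with CPM over listed genes and -0.19 without PBS replicate 1. The 2 PBS libraries differed from each other 1.95-fold, with a counting interval from 1.02 to 3.90. This is more than the 1.19-fold ratio of the groups' summed UMIs after division by their summed library totals. In every library the UMI count of Ptgs1 exceeded that of Ptgs2.

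The upstream sequences of the cyclooxygenase pair and a 3′ UTR element of Ptgs2 are shown because the inducible and the constitutive gene are known to be regulated differently, and because Ptgs2 had the lowest level of the set. The promoter windows are RefSeq sequences of GRCm38.p6, from 250 bases before to 50 bases after the start, written 5′ to 3′ on the gene's strand. Capitals mark matches, on either strand, to the C/EBP motif TTNNGNAA, the CGTCA core of the cAMP response element, the E box CACGTG, the GC box GGGCGG, the TATA box TATAAA, the PU.1 motif GAGGAA and the NF-kB consensus.
Ptgs2 promoter, chr1:150099781-150100080, plus strand: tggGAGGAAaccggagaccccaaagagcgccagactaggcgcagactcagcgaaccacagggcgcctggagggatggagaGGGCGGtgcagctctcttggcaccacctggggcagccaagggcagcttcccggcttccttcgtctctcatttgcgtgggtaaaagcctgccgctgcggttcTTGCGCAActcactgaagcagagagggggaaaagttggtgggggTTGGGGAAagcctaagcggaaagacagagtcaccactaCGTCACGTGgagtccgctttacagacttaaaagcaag
Ptgs1 promoter, chr2:36230176-36230475, plus strand: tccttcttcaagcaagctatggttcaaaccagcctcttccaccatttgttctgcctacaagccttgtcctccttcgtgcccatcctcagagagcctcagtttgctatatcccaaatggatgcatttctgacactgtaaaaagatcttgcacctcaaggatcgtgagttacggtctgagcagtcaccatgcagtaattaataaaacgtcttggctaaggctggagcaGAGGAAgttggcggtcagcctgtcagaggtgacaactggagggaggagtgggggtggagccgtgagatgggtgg
Ptgs2 3′ UTR, chr1:150105798-150105827, plus strand: ATTTATTTATTTAtgtgaagaATTTAattt

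The Ptgs2 window held 2 C/EBP matches, whose first bases lay at -69 and -25 from the start, a GC box at -170 and a PU.1 match at -247. It also held a CGTCA core at 14 and an E box at 17 after the annotated start, which overlap and are printed as 1 run of capitals. All positions count from the annotated start, and where transcription begins in these cells was not measured. The Ptgs1 window held only a PU.1 match at -24. Of 32851 RefSeq promoter windows of the same length, 40.7% held the C/EBP motif, 35.7% the GC box, 28.3% the PU.1 motif, 20.8% the CGTCA core, 13.6% the TATA box, 7.15% the E box and 1.63% the NF-kB consensus. Among the 9 members with a window (Alox5ap had no entry), 3 held the C/EBP motif, 5 the GC box and 6 the PU.1 motif. The CGTCA core and the E box were each held by 1 member, and the TATA box or this NF-kB form by 0. The 3′ UTR line shows the densest 30 bases of ATTTA, the pentamer of AU-rich elements known to mark short-lived mRNAs, with its 4 copies, overlapping ones counted, in capitals. The 3′ UTR of Ptgs2, 2445 bases long in GENCODE M21, held 14 copies or 5.73 per kb, more than 95.5% of the 16795 genes with a 3′ UTR of at least 200 bases (median 1.49 per kb). Per kb, the 2 most abundant members were also high. Alox5ap had 2 copies in 419 bases (4.77 per kb, more than 92.5% of genes) and Pla2g7 had 1 copy in 222 bases (4.50 per kb, more than 90.9%). In such short 3′ UTRs 1 or 2 copies give a high value per kb, and the densest 30 bases of each held 1 copy. Ptger4 had 4.06 and Ptger2 3.29 per kb, and Alox5 held 2 copies in 642 bases. The 3′ UTR of Ptgs1 held 0 copies in 921 bases and that of Ptges 0 in 3106 bases, and the short ones of Lta4h and Ltc4s also held 0. A match is a run of letters in a window, and no binding or RNA decay was measured here.

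Ptges encodes the microsomal PGE2 synthase, the terminal enzyme that works with cyclooxygenase-2 in activated macrophages (chr2:30889471-30929863, minus strand). It had 68 and 223 UMIs with PBS and 58, 164 and 140 UMIs with Sema3G. The levels were 37.4 and 119 CPM with PBS, a mean of 78.4 ± 58.0 (SD, n = 2), and 32.2, 74.0 and 64.5 CPM with Sema3G, a mean of 56.9 ± 21.9 (SD, n = 3). The groups overlapped in part, and the lowest library of each group was replicate 1. PBS replicate 2 exceeded PBS replicate 1 by 3.20-fold, with a counting interval from 2.43 to 4.26, so the spread within a group was far beyond counting error. Sema3G replicate 2 exceeded Sema3G replicate 1 by 2.29-fold (1.69 to 3.15). The log2 fold change of -0.31 (limma adjusted p = 0.642, standard error 0.37) was smaller than this spread. It became 0.51 without PBS replicate 2 and -1.14 without PBS replicate 1, so no direction can be given for Ptges.

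Hpgds, the haematopoietic prostaglandin D2 synthase, and Tbxas1, thromboxane A synthase, compete with Ptges for prostaglandin H2. Hpgds was chosen for description after its values were seen (chr6:65117293-65144908, minus strand). It had 86 and 44 UMIs with PBS and 155, 116 and 99 UMIs with Sema3G, or 35.4 ± 16.8 CPM (SD, n = 2) and 61.4 ± 21.7 CPM (SD, n = 3). The groups overlapped slightly, with 45.6 CPM in Sema3G replicate 3 and 47.3 CPM in PBS replicate 1. Its log2 fold change was 0.80 (limma adjusted p = 0.139, standard error 0.29). It passed the limit under 4 of 16 alternatives, among them edgeR's quasi-likelihood test with TMM scaling (log2 fold change 1.03, adjusted p = 0.0468), limma with CPM over listed genes (adjusted p = 0.0281) and limma without PBS replicate 1 (adjusted p = 0.0363). The value was 0.32 without PBS replicate 2. Replicate 1 was the highest library of its group for Hpgds and the lowest for Ptges. Tbxas1 averaged 77.6 ± 4.49 CPM in PBS libraries (SD, n = 2) and 51.7 ± 6.24 CPM in Sema3G libraries (SD, n = 3). It was lower in all 3 Sema3G libraries but not past the limit (log2 fold change -0.58, limma adjusted p = 0.133). Its log2 fold change was -0.38 after TMM scaling and -0.30 with CPM over listed genes.

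**Figure D3:**
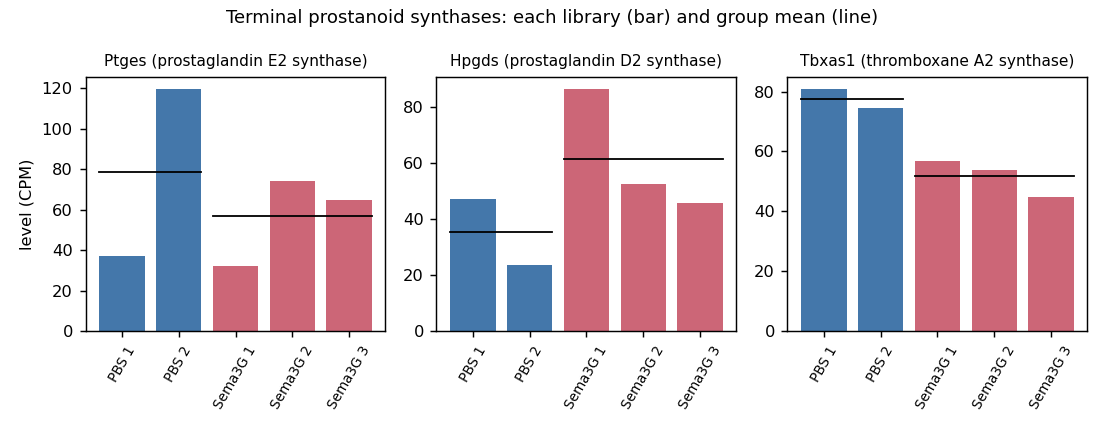
Level of the 3 terminal prostanoid synthases Ptges, Hpgds and Tbxas1 in CPM, with 1 bar per library (blue for PBS, red for Sema3G) and a black line at each group mean. Ptges spans 37.4 to 119 CPM within PBS alone, Hpgds has 3 Sema3G bars that reach from 45.6 to 86.2 CPM, and the 3 Sema3G bars of Tbxas1 are below both PBS bars.

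Alox5 encodes 5-lipoxygenase, which starts leukotriene synthesis (chr6:116410077-116461178, minus strand). It had 52 and 57 UMIs with PBS and 26, 33 and 45 UMIs with Sema3G. The levels were 28.6 and 30.5 CPM with PBS, a mean of 29.5 ± 1.37 (SD, n = 2), and 14.5, 14.9 and 20.7 CPM with Sema3G, a mean of 16.7 ± 3.51 (SD, n = 3). Even the highest Sema3G library was below the lower PBS library. The log2 fold change was -0.80 (standard error 0.27), or -0.58 relative to the median of all genes, with an interval on the fold scale from 0.388 to 0.845 (unadjusted p = 0.00753 from limma). With an adjusted p of 0.120 from limma the gene was not called. The value stayed below 0 under all 16 alternatives, between -0.96 and -0.53, and 1 of them called the gene, the replicate number as a block (-0.96, limma adjusted p = 0.0208), with a pairing that was not established. It was -0.61 after TMM scaling (limma adjusted p = 0.275) and -0.96 to -0.72 with 1 library left out at a time. Of the 10 genes, Alox5 had the smallest unadjusted p and the largest fitted difference on log2(CPM + 1), but relative to the median of all genes Ltc4s was further away, at 0.78.

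Alox5ap encodes the 5-lipoxygenase activating protein, a membrane protein that presents arachidonic acid to the enzyme (chr5:149264767-149288153, plus strand). It had 1017 and 885 UMIs with PBS and 743, 882 and 817 UMIs with Sema3G. The levels were 559 and 474 CPM with PBS, a mean of 516 ± 60.1 (SD, n = 2), and 413, 398 and 377 CPM with Sema3G, a mean of 396 ± 18.3 (SD, n = 3). Here too every Sema3G library was below both PBS libraries. The log2 fold change was -0.38 (limma adjusted p = 0.251, standard error 0.19), of which -0.15 remained relative to the median of all genes, and it was -0.17 after TMM scaling. The larger part of the fitted difference was thus shared with the median gene.

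Lta4h encodes leukotriene A4 hydrolase, which makes the neutrophil attractant leukotriene B4 (chr10:93453411-93484875, plus strand). It had 72 and 47 UMIs with PBS and 58, 52 and 48 UMIs with Sema3G, or 32.4 ± 10.2 CPM (SD, n = 2) and 25.9 ± 5.50 CPM (SD, n = 3). The groups overlapped and the log2 fold change was -0.29 (limma adjusted p = 0.532). It was -0.095 after TMM scaling, -0.011 with CPM over listed genes and 0.024 without PBS replicate 1. Ltc4s encodes leukotriene C4 synthase, which starts the cysteinyl leukotriene branch (chr11:50236461-50238616, minus strand). It had 2 and 3 UMIs with PBS and 5 UMIs in each of the 3 Sema3G libraries. The groups did not overlap, but with 5 UMIs against 15 in all the ratio after division by the library totals, 1.79, had a counting interval from 0.618 to 6.29 and the log2 fold change of 0.56 was not past the limit (limma adjusted p = 0.523). The sum of the leukotriene genes Alox5, Alox5ap, Lta4h and Ltc4s was 628 and 531 CPM with PBS and 463, 439 and 422 CPM with Sema3G, a sum dominated by Alox5ap. The means were 580 ± 68.5 (SD, n = 2) and 441 ± 20.5 (SD, n = 3), and the two-sided exact permutation test over libraries returned p = 0.2, which a design of 2 against 3 cannot undercut. The sum of Ptgs1, Ptgs2 and Ptges was 46.2 and 137 CPM with PBS and 42.8, 95.2 and 79.3 CPM with Sema3G, with overlapping groups (exact two-sided permutation p = 0.6).

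Pla2g7 encodes the secreted lipoprotein-associated phospholipase A2, which degrades platelet-activating factor and oxidised phospholipids and is a known product of macrophages (chr17:43568098-43612201, plus strand). It had 3604 and 3174 UMIs with PBS and 3051, 3461 and 3354 UMIs with Sema3G. The levels were 1980 and 1699 CPM with PBS and 1696, 1562 and 1546 CPM with Sema3G, with means of 1840 ± 199 (SD, n = 2) and 1602 ± 82.6 (SD, n = 3). The groups were separated by the small gap between PBS replicate 2 and Sema3G replicate 1. The log2 fold change was -0.20 (limma adjusted p = 0.629, standard error 0.23), close to the median of all genes, and it was 0.0071 after TMM scaling. The highest and lowest libraries differed by 1.28-fold, the narrowest range of the set.

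Ptger2 and Ptger4 encode EP2 and EP4, the receptors through which PGE2 raises cAMP in macrophages (chr14:44988195-45003820, plus strand, and chr15:5206661-5244187, minus strand). Ptger2 had 56 and 43 UMIs with PBS and 42, 52 and 42 UMIs with Sema3G, or 26.9 ± 5.48 CPM (SD, n = 2) and 22.1 ± 2.34 CPM (SD, n = 3). Ptger4 had 60 and 40 UMIs with PBS and 50, 59 and 48 UMIs with Sema3G, or 27.2 ± 8.17 CPM (SD, n = 2) and 25.5 ± 3.00 CPM (SD, n = 3). The groups overlapped for both receptors, which were expressed at nearly the same level. The log2 fold changes were -0.27 for Ptger2, with an interval from -0.80 to 0.27 (limma adjusted p = 0.556), and -0.064 for Ptger4, with an interval from -0.61 to 0.48 (limma adjusted p = 0.911). The sign of Ptger4 turned to 0.13 after TMM scaling and to 0.22 with CPM over listed genes, where Ptger2 was at 0.014. The other PGE2 receptors, Ptger1 (EP1) and Ptger3 (EP3), had 0 UMIs in all 5 libraries. A gene on the other strand overlaps an exon of 6 of the 10 members, among them the protein-coding Ttc33 at Ptger4, and since the sources used here do not say whether counting used strand, reads of such pairs cannot be told apart.

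Ratios of genes within a library do not depend on the library total, and 4 such ratios were compared. Ptger4 to Ptger2 was 1.07 and 0.930 with PBS and 1.19, 1.13 and 1.14 with Sema3G, higher in all 3 Sema3G libraries by 0.21 on the log2 scale, with counting intervals that overlap between all libraries. Ltc4s to Lta4h was 0.0278 and 0.0638 with PBS and 0.0862, 0.0962 and 0.104 with Sema3G, differing by 1.18 on the log2 scale, which rests on 2 to 5 UMIs of Ltc4s per library. Both gave p = 0.2 in the exact two-sided permutation test, the smallest p the design allows, so neither could have passed a limit of 0.05. Alox5ap to Alox5 was 19.6 and 15.5 with PBS and 28.6, 26.7 and 18.2 with Sema3G, 0.46 higher on the log2 scale with overlapping groups (exact permutation p = 0.4). Ptgs2 to Ptgs1 was 0.0667 in both PBS libraries and 0, 0.146 and 0.0667 with Sema3G. With 0.5 added to each count its log2 difference was -0.37 (exact permutation p = 1.0), and it was 0.35 without Sema3G replicate 1, which held 0 UMIs of Ptgs2. With 4 ratios and a smallest p of 0.2, no adjusted value could reach 0.05.

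**Figure D4:**
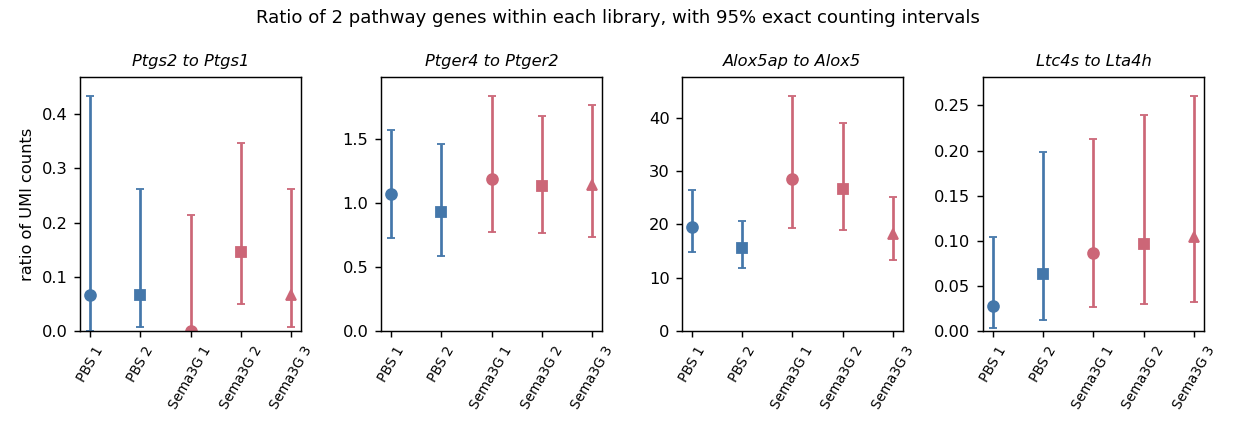
Ratio of the UMI counts of a gene pair in each library, in 4 panels with separate linear axes from 0, with 95% exact (Clopper-Pearson) counting intervals. Blue marks PBS and red Sema3G. The intervals overlap between all libraries in each of the 4 panels, and Alox5ap to Alox5 reaches 28.6 in Sema3G replicate 1 but 18.2 in Sema3G replicate 3, within the PBS range.

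The surrounding pathway was examined with 8 lists of 119 further genes, 118 of them in the table. Of these, 90 had UMIs in at least 1 library, 28 were at 0 throughout and 73 could be tested. limma called 0 higher and 1 lower (1.59% of all genes were called higher, 0.218% lower and 1.80% in either direction). An unadjusted p under 0.05 was found for 4 higher and 18 lower genes, beside 6.83% of all genes higher and 14.2% lower. edgeR's quasi-likelihood test with TMM scaling called 1 gene, Hpgds, and DESeq2 called 0. The median log2 fold change of the 73 genes was -0.37, against -0.22 for all genes (-0.18 against -0.036 after TMM scaling). The groups did not overlap for 30 lower and 3 higher genes of these 73, beside the 26.5% and 11.9% of all genes. By this count and by unadjusted p, the share lower was above that of all genes and the share higher below it. This departure was not tested.

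The 1 gene called was Mapk3, which encodes the kinase ERK1, known to phosphorylate cytosolic phospholipase A2 and 5-lipoxygenase. It had 780 and 1019 UMIs with PBS and 602, 553 and 517 UMIs with Sema3G, and fell from 487 ± 82.7 CPM (SD, n = 2) to 274 ± 52.7 CPM (SD, n = 3), with all 3 Sema3G libraries below both PBS libraries. The log2 fold change was -0.83 (limma adjusted p = 0.0439, standard error 0.20). The call was lost under 11 of 16 alternatives, among them CPM over listed genes (log2 fold change -0.54, limma adjusted p = 0.119). The 11 include the fits without Sema3G replicate 2 (-0.77, limma adjusted p = 0.291) and without Sema3G replicate 3 (-0.74, limma adjusted p = 0.263). They also include the fit without PBS replicate 2 (-0.66). All 10 kinases and other regulators of the lipid enzymes had fitted changes below 0, but 8 of 10 after TMM scaling and 7 of 10 with CPM over listed genes. Their median was -0.40 (-0.20 and -0.11 with these scalings). Anxa2, an annexin that binds membrane phospholipids and the most abundant gene of this list, had 580 ± 153 CPM (SD, n = 2) and 423 ± 16.9 CPM (SD, n = 3), with limma adjusted p = 0.230.

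Among the 8 tested phospholipases and lipases that release substrate, 0 were called and the median was -0.47 (-0.27 after TMM scaling and -0.19 with CPM over listed genes). The most abundant were Pla2g15, a lysosomal phospholipase, at 122 ± 38.7 CPM (SD, n = 2) and 88.0 ± 26.4 CPM (SD, n = 3), and Daglb, a diacylglycerol lipase, at 34.3 ± 14.4 and 29.1 ± 4.68 CPM, both with overlapping groups. Pla2g4a, the cytosolic phospholipase A2 that frees arachidonic acid in activated cells, was looked at after its values were seen. It had 19 and 13 UMIs with PBS and 22, 26 and 31 UMIs with Sema3G. It was higher in all 3 Sema3G libraries but not past the limit (log2 fold change 0.52, limma adjusted p = 0.361). Its log2 fold change was 0.26 to 0.78 with 1 library left out, 0.71 after TMM scaling and 0.81 with CPM over listed genes. The 7 tested enzymes that return arachidonic acid to lipids had 0 calls and a median of -0.29 (-0.092 and -0.0058 with these scalings). Acsl1, an acyl-CoA synthetase, had 203 ± 85.2 and 168 ± 47.9 CPM with overlapping groups, and Lpcat2, which also makes platelet-activating factor, had 165 ± 14.2 and 129 ± 5.73 CPM without overlap (limma adjusted p = 0.278).

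Of the other prostanoid synthases 7 were tested, with 0 calls and a median of -0.52 (-0.32 after TMM scaling and -0.25 with CPM over listed genes). The most abundant were Tbxas1, given above, and Ptges3, the cytosolic PGE2 synthase and co-chaperone p23, which had 61.9 ± 6.50 CPM (SD, n = 2) and 67.1 ± 7.09 CPM (SD, n = 3) with overlapping groups. The 6 other lipoxygenase and leukotriene enzymes tested had 0 calls and a median of -0.45 (-0.25 and -0.16 with these scalings). Cotl1, a 5-lipoxygenase binding protein, had 436 ± 138 and 314 ± 64.5 CPM with overlapping groups, and Dpep2, a dipeptidase that turns leukotriene D4 into E4, had 218 ± 11.7 and 159 ± 19.6 CPM without overlap (limma adjusted p = 0.176). Alox15 had 0 UMIs in all libraries.

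The 13 tested genes of breakdown and transport had 0 calls and a median of -0.23, close to that of all genes (-0.055 after TMM scaling and 0.022 with CPM over listed genes). Abcc1, which exports leukotriene C4, had 164 ± 18.7 CPM (SD, n = 2) and 143 ± 3.48 CPM (SD, n = 3), and Pafah1b1, a subunit of an intracellular platelet-activating factor acetylhydrolase, had 99.8 ± 2.60 and 103 ± 2.42 CPM. Of the other receptors 8 were tested with 0 calls and a median of -0.34 (-0.15 and -0.066 with these scalings). Fpr2, the formyl peptide receptor that also binds lipoxin A4, was the most abundant of them, at 1741 ± 276 and 1286 ± 84.8 CPM (log2 fold change -0.43, limma adjusted p = 0.274). Cysltr1, the receptor for leukotriene D4, had 94 and 141 UMIs with PBS and 149, 179 and 207 UMIs with Sema3G. It was higher without overlap at 63.6 ± 16.9 and 86.4 ± 7.92 CPM but not past the limit (log2 fold change 0.46, limma adjusted p = 0.221). Its log2 fold change was 0.19 to 0.73 with 1 library left out and 0.66 after TMM scaling. With CPM over listed genes it was 0.75 (limma adjusted p = 0.0547). The receptors for prostaglandin D2 (Ptgdr, Ptgdr2), prostaglandin F2α (Ptgfr) and thromboxane (Tbxa2r) had 0 UMIs throughout.

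Genes that respond to cAMP, downstream of EP2 and EP4, showed no shared direction. Of 14 tested, 7 lay above 0 and 7 below, 0 were called, and the median was -0.015 (0.15 after TMM scaling and 0.24 with CPM over listed genes). Thbs1, thrombospondin 1, had 820 ± 255 CPM (SD, n = 2) and 979 ± 307 CPM (SD, n = 3) with overlapping groups. Pde4b, the cAMP phosphodiesterase, had 350 ± 68.0 and 253 ± 12.1 CPM, lower in all 3 Sema3G libraries but not past the limit (limma adjusted p = 0.187).

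**Figure D5:**
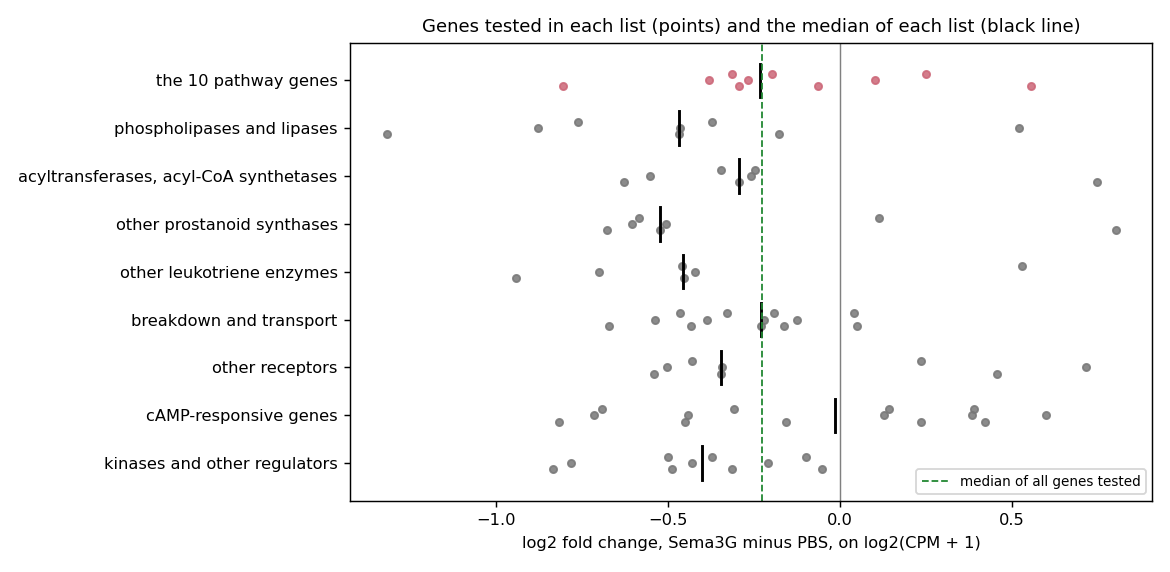
Log2 fold change (Sema3G minus PBS, on log2(CPM + 1)) of every gene tested in the pathway and in the 8 wider lists. Each point is a gene, red for the 10 pathway genes and grey for the others, the black line is the median of a list and the dashed green line the median of all genes tested (-0.22). The pathway genes centre on the median of all genes, the 10 kinases and other regulators lie wholly below 0 on this scale (8 of 10 after TMM scaling), and the cAMP-responsive genes are spread to both sides.

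Markers of other cells that express this pathway were summed in each library. Of 11 mast cell and basophil markers, cells known for Ltc4s and Hpgds, 9 were at 0, Cpa3 and Gata2 had 1 UMI each, and the sum was 0 CPM in both PBS libraries and at most 0.556 CPM with Sema3G. Of 7 dendritic cell markers 4 were at 0, and of 9 lymphoid markers 8 were at 0, all but Cd4. The 9 stromal markers, 8 of them detected, summed to 24.1 to 56.6 CPM with PBS and 22.1 to 42.3 CPM with Sema3G. Of 10 neutrophil markers in the table, cells known for Alox5 and Alox5ap, 4 were at 0 (Elane, Ngp, Retnlg and Cxcr2), nearly all UMIs were of Mmp8 and S100a8, and the sum was 614 to 900 CPM with PBS and 518 to 630 CPM with Sema3G. The platelet list, known for Ptgs1 and Tbxas1, is dominated by Pf4. Ppbp had 15 to 56 UMIs and Treml1 7 to 12 UMIs in each library, Itgb3, Itga2b, Gp1bb and Gp9 had 0 to 3 UMIs per library, and Gp1ba was at 0 in all. The sum was 4124 to 4642 CPM with PBS and 2972 to 3882 CPM with Sema3G. Among the neutrophil markers, S100a9 had 2 to 4 UMIs per library. The neutrophil sum overlapped between the groups and the platelet sum was lower with Sema3G. The sum of the 10 macrophage markers was also lower, at 10327.1 to 13213.5 CPM with PBS and 9449.7 to 10039.0 CPM with Sema3G. The part of neutrophil or platelet RNA in the values of Alox5, Alox5ap, Ptgs1 and Tbxas1 was not tested.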

How the data were processed

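RNA from 5 samples was made into QuantSeq 3′ mRNA-seq libraries with UMIs. The authors mapped the reads to mm10 and counted UMIs with Strand NGS, and the deposited values are CPM, normalized by the authors with edgeR (version 3.12 in the submitters' processing notes). The sources used here give no gene annotation, filter or use of strand. The table also holds p-values and rankings of the authors' own comparison, which were not used.

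Dividing each library's CPM by its smallest step gave UMI counts, with 100% of values within 0.01 of a whole number. For counts, the quasi-likelihood test of edgeR had been planned. Since CPM were deposited, log2(CPM + 1) of the 10088 genes whose mean reached 1 CPM was instead tested with limma 3.58.1 in R 4.3.3, with a trended variance prior and Benjamini-Hochberg adjustment. edgeR 4.0.16, DESeq2 1.42.0 and limma-voom served as alternatives on these counts, together with other pseudocounts (0.1 and 5 CPM), filters (none, and a mean of 5 CPM), scalings, the replicate number as a block and each library left out in turn. The scripts were tested on simulated data. Fold changes on the log2(CPM + 1) scale understate the change of low genes. Ratios and intervals were computed with scipy 1.17.1, and Ptgs2 to Ptgs1 had 0.5 added to each count because 1 library held 0 UMIs. Intervals are Clopper-Pearson, at 95%, and like the floor of 3 counts they cover counting error only.

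The members, the lists, the tests and the rule for naming genes were chosen with earlier results of these data known. Named are all 10 members, genes of the wider lists past the limit, the 2 most abundant tested genes of each wider list, and the 3 genes most like Ptgs2 and Alox5 in pattern, of which an item that is not reported here was left out. Hpgds and Pla2g4a were added after their values were seen. No library pair agreed within sampling noise, since the chi-square divided by its degrees of freedom lay between 1.77 and 29.6, and all 5 libraries were used. The symbols of 27 gene rows had been turned into dates and none is named. Gene positions and 3′ UTRs came from GENCODE M21 (GRCm38) and promoters from RefSeq (GRCm38.p6). Protein sequences were not used here.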

Additional observations from a re-analysis of the deposited data

How the results depend on the processing

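All 16 alternative settings were run. No member was called where it had an adjusted p, except Alox5, lower with the replicate number as a block (log2 fold change -0.96, limma adjusted p = 0.0208). Ptgs2 and Ltc4s had no adjusted p with the filter at a mean of 5 CPM, both edgeR tests, DESeq2 and voom. Of 150 member values under the alternatives, 129 kept their direction and 21 reversed. With scaling by TMM, by CPM over listed genes, by edgeR with TMM, by DESeq2 and by voom, Pla2g7 reversed to 0.0071, 0.094, 0.046, 0.017 and 0.046 and Ptger4 to 0.13, 0.22, 0.16, 0.13 and 0.17. Ptger2 reversed to 0.014 with CPM over listed genes and Ptgs2 to -0.40 with a pseudocount of 0.1 CPM. With 1 library left out, Ptgs1 reached -0.19 to 0.69, Ptgs2 -0.37 to 0.58, Ptges -1.14 to 0.51, Lta4h -0.61 to 0.024 and Ptger4 -0.36 to 0.24. The reversals were Ptgs1 at -0.19, Ptgs2 at -0.11, Lta4h at 0.024 and Ptger4 at 0.24 without PBS replicate 1, Ptges at 0.51 without PBS replicate 2 and 0.045 without Sema3G replicate 1, Ptgs2 at -0.37 without Sema3G replicate 2, and Ptger4 at 0.032 without Sema3G replicate 3. Ptgs2 to Ptgs1 reversed to 0.57 with nothing added to the counts and Sema3G replicate 1, at 0 UMIs, left out, and with 0.5 added it ranged from -0.96 to 0.35 with 1 library left out, the positive value being that without Sema3G replicate 1. The other 3 ratios kept their direction, at 0.30 to 0.67 for Alox5ap to Alox5, 0.58 to 1.78 for Ltc4s to Lta4h and 0.11 to 0.31 for Ptger4 to Ptger2.

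Of the wider lists, 1 gene was called higher with CPM over listed genes, edgeR with TMM and the replicate block, and 0 to 1 with 1 library left out (1 without PBS replicate 1 and without Sema3G replicate 1). Over all genes, 486 of 10521 were called higher with CPM over listed genes and 88 of 10088 without PBS replicate 1. The wider gene called higher was Hpgds except without Sema3G replicate 1, where it was Vegfa, named here after its values were seen. The number called lower was 0 with a pseudocount of 0.1 CPM, no filter, TMM scaling, CPM over listed genes, both edgeR tests, DESeq2 and voom, 3 with the replicate block, and 0 to 2 with 1 library left out (2 without Sema3G replicate 1, 0 without Sema3G replicate 2 and without Sema3G replicate 3). The causes were not tested. With the replicate block, Ptger4 reversed to 0.032, Hpgds was at 0.99 (limma adjusted p = 0.000499), and over all genes 298 were called higher and 275 lower. The groups share only 2 replicate numbers, whose libraries deviated together at correlations of 0.173 and 0.111 over genes. However, PBS replicate 2 and Sema3G replicate 3, which share no number, were at 0.097. With 2 PBS libraries, the deviations from the PBS mean are mirror images. The correlations are therefore tied to each other and cannot decide the pairing. The labels do not say what a number marks, so the pairing was not established, and the block leaves 1 residual degree of freedom. With 1 library left out, calls over all genes went from 27 higher and 0 lower without Sema3G replicate 2 to 270 higher and 440 lower without Sema3G replicate 1. Depth limits Ptgs2 and Ltc4s, whose UMIs lie near the floor of 3 counts.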

Other observations

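The genes most like Ptgs2 and Alox5 in pattern were taken over the 5 libraries from genes whose mean reached 10 CPM, by the root mean square difference of log2(CPM + 1) after centring each gene on its mean. For Ptgs2 the nearest of 6381 genes were Mfsd7a (0.26), Nos2 (0.27) and Samsn1 (0.28). Nos2, the inducible nitric oxide synthase of activated macrophages, had 9.34 and 15.5 CPM with PBS and 5.56, 28.4 and 20.3 CPM with Sema3G, lowest in Sema3G replicate 1 and highest in Sema3G replicate 2, as for Ptgs2. Its adjusted p was 0.735 from limma. The pattern of Ptgs2 rests on 11 UMIs in all.

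For Alox5, genes among the nearest of 6380 were Ppp4r1 and Sidt2, each at 0.10. Ppp4r1, a regulatory subunit of protein phosphatase 4, had 37.9 and 36.4 CPM with PBS and 21.7, 20.8 and 27.2 CPM with Sema3G, lower in all 3 Sema3G libraries but not past the limit (log2 fold change -0.67, limma adjusted p = 0.140). With 5 libraries many genes share any given pattern, and the likeness is a description.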
